A study of Arabidopsis thaliana with 20 samples.

Results

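The 33 genes described here are photosynthesis genes that Arabidopsis thaliana carries on its plastid chromosome. They were taken by locus identifier from a table of 30613 expression features, of which 132 are plastid loci, and all 33 were present and passed the filter on low values. In photosystem I they encode 5 subunits, psaA (ATCG00350), psaB (ATCG00340), psaC (ATCG01060), psaI (ATCG00510) and psaJ (ATCG00630). The 15 genes of photosystem II are psbA (ATCG00020), psbB (ATCG00680), psbC (ATCG00280), psbD (ATCG00270), psbE (ATCG00580), psbF (ATCG00570), psbH (ATCG00710), psbI (ATCG00080), psbJ (ATCG00550), psbK (ATCG00070), psbL (ATCG00560), psbM (ATCG00220), psbN (ATCG00700), psbT (ATCG00690) and psbZ (ATCG00300). The cytochrome b6f complex has 6, petA (ATCG00540), petB (ATCG00720), petD (ATCG00730), petG (ATCG00600), petL (ATCG00590) and petN (ATCG00210), and the chloroplast ATP synthase has 6, atpA (ATCG00120), atpB (ATCG00480), atpE (ATCG00470), atpF (ATCG00130), atpH (ATCG00140) and atpI (ATCG00150). The last is rbcL (ATCG00490), the large subunit of Rubisco. RNA attached to chromatin was isolated from whole seedlings 10 days old, depleted of ribosomal RNA and fragmented, and N6-methyladenosine (m6A) was profiled by immunoprecipitation and sequencing (MeRIP-seq). Input libraries give the level of RNA in this chromatin fraction, and immunoprecipitated (IP) libraries give the m6A ratio.

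There were 5 genotypes, all in the Col-0 background, with 2 input and 2 IP libraries each. In 4 of them human ALKBH5, an enzyme that removes m6A from RNA, was overexpressed. The line labelled del-cIDR carries ALKBH5 without the region called cIDR, where IDR stands for an intrinsically disordered region, and the line labelled FL carries the full-length enzyme. Each has a partner with the H204A exchange, named inactive in the series' design and called inactive del-cIDR and inactive FL below. The lines are set against wild type, Col-0. Plants grew on sucrose medium under 16 h of light and 8 h of dark at 21 °C. The promoter that drives the transgene, the number of independent lines and what separates the 2 libraries of a group are not given in the sources used here, and no row of the table names the transgene, so its level was not analysed here.

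Chloroplast genes are read by a bacterial-type RNA polymerase whose core is encoded in the plastid and whose sigma factors and associated proteins are encoded in the nucleus, together with phage-type polymerases that are also nuclear gene products. Photosynthesis genes depend mainly on the bacterial-type enzyme, and most are transcribed in polycistronic units that are later cut, spliced and protected by nuclear-encoded RNA-binding proteins. Each complex of the thylakoid membrane combines plastid-encoded and nuclear-encoded subunits. Plastid transcripts do not pass through the nucleus, but plastid genomes and their nascent RNA can be recovered with chromatin.

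The deposited expression value is a normalized signal per feature whose unit the labels do not state. Summed over the 45 ERCC spike-in controls it was nearly equal in all libraries, 109313 to 110569. The values are not counts, so the depth behind them is unknown and intervals for counting error cannot be given. Libraries differed in the level of the median nuclear feature, which had a signal of 78.3 and 88.7 in del-cIDR, 99.7 and 98.3 in FL, 69.5 and 70.3 in inactive del-cIDR and 59.9 and 71.0 in inactive FL, against 53.3 and 50.8 in Col-0. The mean summed nuclear signal was 22205000 in del-cIDR, 24675000 in FL, 19425000 in inactive del-cIDR, 22304000 in inactive FL and 21286000 in Col-0. In inactive del-cIDR the sum thus lay below Col-0 while the median lay above it. Each comparison below is set beside the median change of all features, in which weak and strong features count alike. Fold changes are differences of log2(signal + 6.94) from limma, with p-values adjusted by Benjamini-Hochberg over the 30613 features, and a gene is called where the adjusted p lies under 0.05. With 2 libraries a group, the p-values reflect the spread between the libraries of a group alone, possibly only a technical one, and draw on a variance shared across features (47.4 prior degrees of freedom). In whole seedlings, fewer cells of a type and less RNA per cell cannot be told apart. How much chloroplast material came with the chromatin is not given, so its recovery cannot be told apart from the level of plastid RNA. The mean summed plastid signal was 11630000 in del-cIDR, 7333800 in FL, 12353000 in inactive del-cIDR, 8829000 in inactive FL and 10391000 in Col-0.

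In wild type, 2 transcripts made up most of the signal of the 33 genes, not divided by length. psbA, which encodes the D1 protein of the photosystem II reaction centre, carried 33.5% of it, and rbcL carried 27.5%. psaB and psaA, the paired reaction centre proteins of photosystem I, followed with 7.44% and 7.38%, then psbC, the inner antenna protein CP43, with 6.50% and psbB, its partner CP47, with 5.15%. Per kilobase of gene, introns included, the order over all input libraries began with psbA (880600 signal units per kb), rbcL (528500), psbN (168100) and psbC (136700), and psaB and psaA were next to each other at 94010 and 93820. The lowest levels per kb belonged to genes of very small proteins, psbM (2110), psbK (3525) and petG (5051). Replicates lay close together: over the 33 genes and 5 genotypes the ratio of the 2 libraries ran from 0.886 to 1.22.

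Summed over the 33 genes, the signal was 3897975 and 4207648 in del-cIDR, 2095075 and 2055966 in FL, 2672395 and 2853641 in inactive del-cIDR and 2360001 and 2451151 in inactive FL, against 2648031 and 2690999 in Col-0. The del-cIDR libraries were the highest and the FL libraries the lowest, and neither overlapped any other genotype. As a ratio to the Col-0 mean this is 1.52 in del-cIDR, 0.777 in FL, 1.03 in inactive del-cIDR and 0.901 in inactive FL. The 33 genes took 11.1% and 11.4% of all signal in del-cIDR, 6.11% and 6.13% in FL, 7.96% and 8.49% in inactive del-cIDR and 7.10% and 7.54% in inactive FL, against 7.96% and 7.83% in Col-0.

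**Figure D1:**
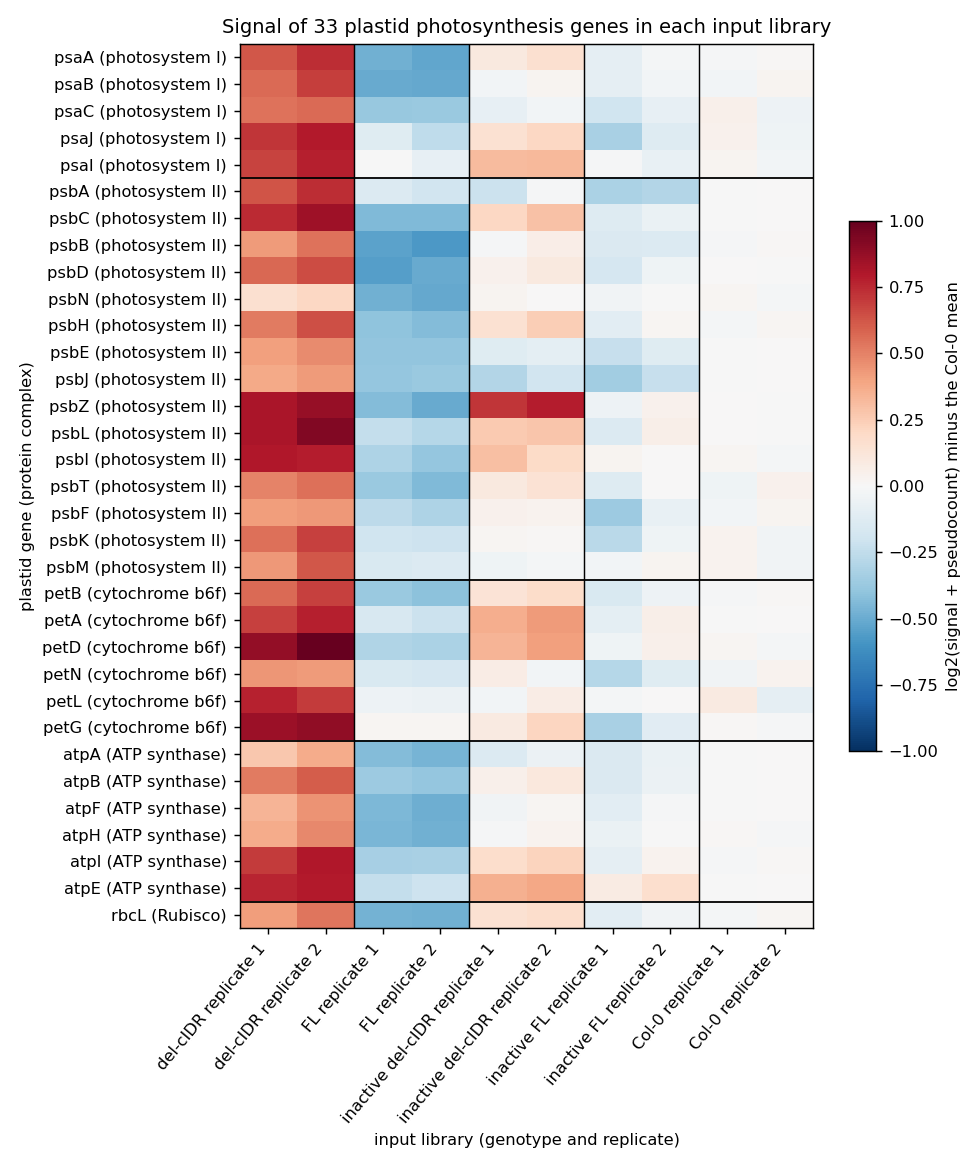
Signal of each of the 33 genes (rows, grouped by protein complex and ordered by mean signal within it) in each of the 10 input libraries (columns), as log2(signal + pseudocount) minus the mean of the 2 Col-0 libraries; red is above Col-0, blue is below. Both del-cIDR columns are red for all 33 genes, both FL columns are blue for nearly all, and psbZ is the only strongly red row in inactive del-cIDR.

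In del-cIDR seedlings all 33 genes rose against Col-0, by a median of 0.62 on the log2 scale, and for each of the 33 the 2 del-cIDR libraries lay above both Col-0 libraries. The background is high: 65.5% of all features were called higher in this comparison and 1.85% lower, 85.4% had groups that did not overlap, and the median change of all features was 0.56. The complexes had different medians, but the ranges of their genes overlapped and the differences were not tested. The cytochrome b6f genes had a median of 0.73, photosystem I 0.68, photosystem II 0.58 and ATP synthase 0.49, and rbcL rose by 0.48.

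The highest rise was that of petD, subunit IV of the cytochrome b6f complex. Its signal was 16941 and 18379 in del-cIDR against 9333 and 9131 in Col-0, a log2 change of 0.93 ± 0.041 (SE; limma, Benjamini-Hochberg adjusted p = 1.26e-26). psbA had 1378190 and 1488630 in del-cIDR against 890332 and 896693 in Col-0 (0.68 ± 0.049). rbcL had 981693 and 1061360 in del-cIDR against 722763 and 745809 in Col-0 (0.48 ± 0.044). All 3 transcripts were separated from Col-0 without overlap, and petD, with a level of 9327 signal units per kb over all libraries, changed the most.

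Within photosystem I the spread was small, with psaC, the iron-sulphur subunit, at 0.55, psaB at 0.63, psaA at 0.68, and the small subunits psaI at 0.73 and psaJ at 0.75. psaA had 302240 and 329263 in del-cIDR against 195847 and 198157 in Col-0. psaI, at 5526 signal units per kb, lies far below psaA in level. Photosystem II was wider, and ran over 0.19 for psbN, 0.40 for psbJ, 0.43 for psbF, 0.44 for psbE, 0.48 for psbB, 0.52 for psbT, 0.53 for psbM, 0.58 for psbH, 0.61 for psbD, 0.62 for psbK, 0.68 for psbA, 0.79 for psbI, 0.80 for psbC, 0.85 for psbZ and 0.87 for psbL. psbE and psbF, the subunits of cytochrome b559, thus lay in the lower part and psbC in the upper part. The genes psbH, psbI, psbJ, psbK, psbL, psbM, psbT and psbZ, which encode small membrane-spanning subunits, lay across the whole span above psbN. In the cytochrome b6f complex petN was lowest at 0.43, petB (cytochrome b6) stood at 0.62, petA (cytochrome f) and petL at 0.73, and petG at 0.87, where petG, petL and petN encode small subunits at the rim of the complex. In the ATP synthase, the alpha subunit gene atpA rose least at 0.32, followed by atpF at 0.40, atpH (the ring subunit c) at 0.42, atpB (beta subunit) at 0.56, atpI at 0.75 and atpE (epsilon subunit) at 0.78.

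The median rise of 0.62 lay close to the 0.56 of all features. Over only the features at or above the median mean signal, the median change was 0.43. When each library was centred on its median nuclear feature, 4 of the 33 genes were called higher and 5 lower in del-cIDR, and centred on the other plastid features 12 were higher and 10 lower. How many genes were called, and in which direction, thus depends on the scaling. Nuclear centring also widened the SEs, from 0.044 to 0.20 for rbcL and from 0.038 to 0.12 for psbB. The count under it therefore also reflects lower precision.

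In FL seedlings the same genes lay on the other side of Col-0. Of the 33, 29 fell, 0 rose and 4 did not pass the test, with a median change of -0.38, while the median change of all features was 0.67 in the opposite direction. Only 1.47% of all features were called lower and 75.5% were called higher. For 31 of the 33 genes the FL and Col-0 libraries did not overlap, as for 89.8% of all features. The 4 genes that did not pass are all small: psbM at -0.14, petL at -0.056, psaI at -0.041 and petG at 0.016.

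The deepest fall was that of psbB, the CP47 antenna protein, with 94862 and 92396 in FL against 136215 and 138494 in Col-0, a log2 change of -0.55 ± 0.038 (SE; limma, Benjamini-Hochberg adjusted p = 3.43e-18). psbD, the D2 reaction centre protein, fell by 0.53, psaB by 0.51 and psaA by 0.50. psaA had 140971 and 137708 in FL against 195847 and 198157 in Col-0. These reaction centre and antenna transcripts were thus all below Col-0 without overlap.

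psbA changed less than rbcL. It had 812216 and 783815 in FL against 890332 and 896693 in Col-0, a change of -0.16 ± 0.049, while rbcL had 528823 and 527191 in FL against 722763 and 745809 in Col-0, a change of -0.48 ± 0.044. psbA accordingly took 38.8% and 38.1% of the signal of the 33 genes in FL, against 33.6% and 33.3% in Col-0.

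By complex, ATP synthase had a median of -0.41 with 6 of 6 genes lower, photosystem II -0.39 with 14 of 15, photosystem I -0.38 with 4 of 5 and cytochrome b6f -0.17 with 4 of 6. In the ATP synthase atpF and atpH fell by 0.47, atpA by 0.45, atpB by 0.38, atpI by 0.33 and atpE by 0.22. In the cytochrome complex petB fell by 0.39, petD by 0.31, petA by 0.19 and petN by 0.16. The size of the change went with the signal of the gene, not divided by length: over the 33 genes the log2 change had a Pearson r of -0.66 and a Spearman rho of -0.74 with the log10 mean signal (-0.60 and -0.75 with the signal per kb), a description in which genes of 1 unit share their transcripts and all share the libraries. Genes of 300 bp or more had a median of -0.44 and 15 of 15 were lower; the 18 shorter ones had a median of -0.32 and 14 were lower. The length limit was chosen after the values were seen. With the log10 length, Pearson r was -0.53 and Spearman rho -0.62 in FL. In the other genotypes against Col-0 the correlation with the log10 mean signal was weaker. Pearson r was -0.16 in del-cIDR, -0.12 in inactive del-cIDR and -0.073 in inactive FL, and Spearman rho was -0.21, -0.13 and -0.087 in that order. Centring moved the count in FL, with 33 lower and 0 higher against the nuclear median and 23 lower and 1 higher against the other plastid features.

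The inactive enzymes gave smaller and mixed differences from Col-0. In inactive del-cIDR, 14 genes rose, 3 fell and 16 did not pass the test, with a median change of 0.077. Of all features 32.4% were called higher and 7.84% lower, and their median change was 0.31. For 23 of the 33 genes the libraries of the 2 genotypes did not overlap, as for 72.5% of all features. The 14 are psbZ at 0.75, petA at 0.39, petD and atpE at 0.37, psaI at 0.32, psbL at 0.27, psbC at 0.25, psbI at 0.24, psbH and atpI at 0.20, psaJ at 0.18, rbcL and petB at 0.16 and psaA at 0.13. The 3 that fell are psbJ at -0.24, psbE at -0.11 and atpA at -0.10.

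psbZ, a small photosystem II subunit that lies behind psbD and psbC, stood apart. Its signal was 6340 and 6659 in inactive del-cIDR, against 3858 and 3849 in Col-0, a log2 change of 0.75 ± 0.044 (SE; limma, Benjamini-Hochberg adjusted p = 4.32e-21). That level lay close to active del-cIDR, where psbZ had 6793 and 7072, and far from FL and inactive FL, where it had 2847 and 2721 in FL and 3729 and 3962 in inactive FL. psbJ moved the other way, with 5301 and 5681 in inactive del-cIDR, against 6478 and 6484 in Col-0.

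Most of these rises depend on the scaling: centred on the nuclear median, 1 gene was called higher and 22 lower in inactive del-cIDR, and centred on the other plastid features 4 were higher and 18 lower. Without the trend in the prior variance, 5 genes were called, all higher.

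In inactive FL, 1 gene rose, 12 fell and 20 did not pass the test, with a median change of -0.062. Of all features 3.12% were called lower and 16.9% higher, with a median change of 0.22. For 19 of the 33 the libraries did not overlap, as for 58.6% of all features. psbA fell by 0.31, with 716854 and 727586 in inactive FL against 890332 and 896693 in Col-0. psbJ fell by 0.29, psaJ by 0.23, petG and psbF by 0.22, petN by 0.20, psbE by 0.18, psbB and psaC by 0.14, psbD by 0.11 and atpA and atpB by 0.10. The gene that rose was atpE, by 0.13, with 5026 and 5343 in inactive FL against 4723 and 4761 in Col-0. This count rests on single libraries: it was 5 without either Col-0 library and 5 without inactive FL replicate 1. It was 30 lower against the nuclear median, 14 higher and 2 lower against the other plastid features, and 0 without the trend in the prior variance, where limma gave 2 genes at an unadjusted p under 0.05.

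In each gene given next, both del-cIDR libraries were the highest. petB had 28007 and 30331 in del-cIDR, 14658 and 14201 in FL, 20796 and 21467 in inactive del-cIDR and 16997 and 18260 in inactive FL, against 18752 and 19083 in Col-0. petD had 16941 and 18379 in del-cIDR, 7509 and 7423 in FL, 11654 and 12246 in inactive del-cIDR and 8975 and 9582 in inactive FL, against 9333 and 9131 in Col-0. In both genes the FL libraries were the lowest and the inactive FL libraries overlapped or lay just below Col-0. petN, by contrast, had its lowest library in inactive FL, with 1042 and 1029 in del-cIDR, 688 and 681 in FL, 808 and 751 in inactive del-cIDR and 626 and 703 in inactive FL, against 748 and 784 in Col-0.

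In photosystem I, psaA had 210563 and 219708 in inactive del-cIDR and 184965 and 194265 in inactive FL, against 195847 and 198157 in Col-0, in addition to the values above. psaC had 4438 and 4525 in del-cIDR, 2344 and 2357 in FL, 2879 and 3001 in inactive del-cIDR and 2658 and 2887 in inactive FL, against 3164 and 2945 in Col-0. psaI had 864 and 925 in del-cIDR, 537 and 509 in FL, 670 and 674 in inactive del-cIDR and 535 and 509 in inactive FL, against 548 and 528 in Col-0. psaI in FL and inactive FL overlapped Col-0, whereas psaC in FL lay below every other library. In photosystem II, psbJ had 8423 and 8724 in del-cIDR, 4958 and 5001 in FL, 5301 and 5681 in inactive del-cIDR and 5101 and 5532 in inactive FL, all but del-cIDR below the 6478 and 6484 of Col-0. In the ATP synthase, atpA had 79456 and 85157 in del-cIDR, 48884 and 47825 in FL, 60015 and 63137 in inactive del-cIDR and 59717 and 62976 in inactive FL, against 65876 and 65967 in Col-0. atpE had 8041 and 8203 in del-cIDR, 4009 and 4108 in FL, 6085 and 6194 in inactive del-cIDR and 5026 and 5343 in inactive FL, against 4723 and 4761 in Col-0, so that FL was the only genotype below Col-0 for this gene. rbcL had 815420 and 829526 in inactive del-cIDR and 682042 and 716282 in inactive FL, against 722763 and 745809 in Col-0.

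**Figure D2:**
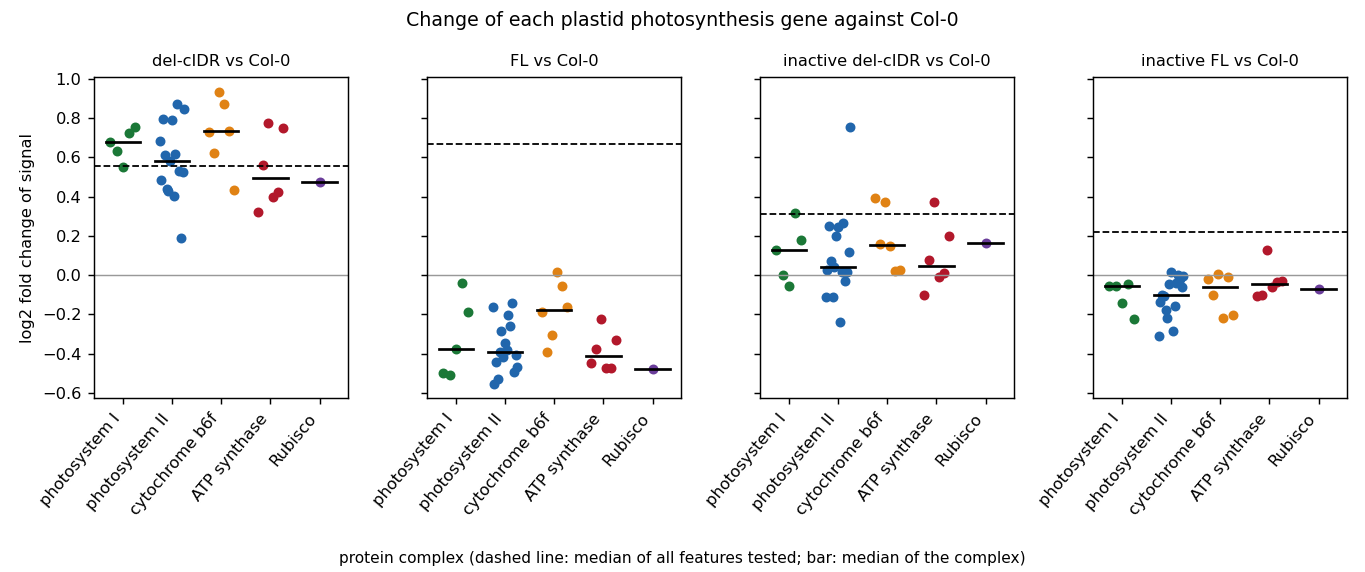
Log2 fold change against Col-0 (y axis) of each of the 33 genes, by protein complex (x axis), in 1 panel for each of the 4 ALKBH5 genotypes; points are genes, solid bars are complex medians and the dashed line is the median of all 30613 features. Points lie around the dashed line in del-cIDR, about 1 log2 unit below it in FL, and mostly below it in both inactive genotypes, with psbZ at 0.75 as the highest point of inactive del-cIDR.

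Each active enzyme was then set against its own inactive partner, which carries the same protein form with the H204A exchange. The partners are separate genotypes and the transgene level was not analysed. Enzyme activity therefore cannot be told apart from other differences between the lines. In the del-cIDR form 32 of the 33 genes were higher with the active enzyme, 0 lower, and psbZ did not pass the test (0.093 ± 0.044, adjusted p = 0.105 by limma with Benjamini-Hochberg adjustment). The median was 0.54. Of all features 28.7% were called higher and 2.76% lower, with a median of 0.27. For all 33 genes the libraries of the 2 genotypes did not overlap, as for 64.0% of all features.

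The largest difference was that of psbA, with 1378190 and 1488630 in del-cIDR, against 770598 and 887107 in inactive del-cIDR (0.79 ± 0.049). petG and petL followed at 0.72 and 0.71, then psbJ at 0.64 and psaB at 0.63. By complex the medians were 0.58 in photosystem I, 0.55 in photosystem II, 0.51 in cytochrome b6f and 0.42 in ATP synthase, and rbcL stood at 0.31. Centred on the nuclear median 16 genes were called higher and 0 lower, and centred on the other plastid features 19 were higher and 2 lower.

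In the full-length form most genes were lower with the active enzyme. Of the 33 genes, 23 were lower in FL than in inactive FL, 2 higher and 8 did not pass the test, with a median of -0.30. Over all features 0.751% were called lower and 58.1% higher, and the median was 0.43. For 28 of the 33 the libraries did not overlap, as for 82.2% of all features. The largest falls were psbN at -0.47, psbZ at -0.46, psaB at -0.45 and psaA and atpH at -0.44. psbZ had 2847 and 2721 in FL, against 3729 and 3962 in inactive FL. The 2 that rose were psbA at 0.14 and petG at 0.23, and petN, psaJ, psaI, psbK, petL, psbF, psbJ and psbM lay between -0.14 and 0.044 without passing. The ATP synthase genes were uniform, 6 of 6 lower between -0.44 and -0.28. Against the nuclear median 32 were lower and 0 higher, and psbA, at -0.41 there, was the gene not called (adjusted p = 0.127 by limma).

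The difference between both activity effects was tested directly as an interaction of activity and protein form, which shares no control libraries between its arms. All 33 genes were called, and in all 33 the active minus inactive difference was higher in the del-cIDR form, by a median of 0.76, with a range of 0.36 (petN) to 1.08 (psaB). Of all features 6.15% were called higher in this comparison and 20.1% were called at all, and the median of all features was -0.19. The complex medians were 0.84 for photosystem I, 0.79 for ATP synthase, 0.75 for photosystem II and 0.63 for cytochrome b6f. Scaling left the direction as it was, with 33 genes called higher and 0 lower after centring on the nuclear median and 28 higher and 0 lower after centring on the other plastid features.

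**Figure D3:**
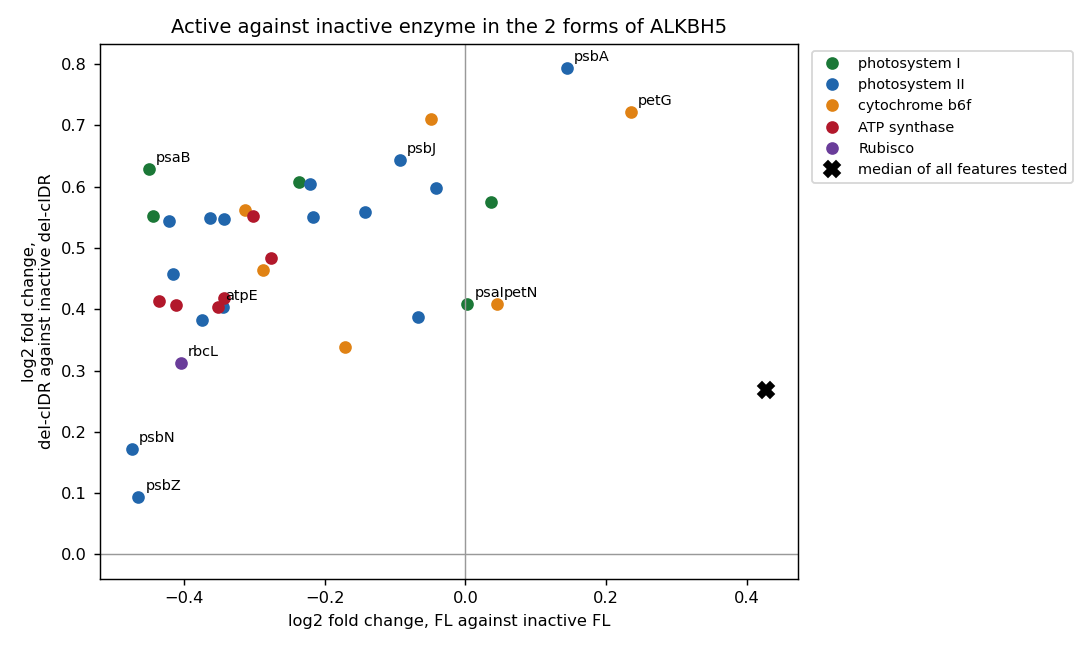
Log2 fold change of FL against inactive FL (x axis) and of del-cIDR against inactive del-cIDR (y axis) for each of the 33 genes, coloured by protein complex; the black cross is the median of all 30613 features in both comparisons. All points lie above the horizontal zero line and most lie left of the vertical one, while the cross lies to the right of all of them.

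Averaged over both forms, active against inactive enzyme left 22 genes higher, 2 lower (psbZ at -0.19 and psbN at -0.15) and 9 not called, with a median of 0.10, against 66.6% of all features called higher and 1.34% lower, and a median of 0.37. The average joins differences that were of opposite sign for most genes. It turned under both scalings, to 0 higher and 26 lower against the nuclear median and 5 higher and 18 lower against the other plastid features, and 14 genes were called without the trend in the prior variance.

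The active forms were also set directly against each other. All 33 genes were higher in del-cIDR than in FL, by a median of 0.93 and a range of 0.59 (petN) to 1.31 (psbZ); 10.6% of all features were called higher, and the median of all features was -0.14. The 2 genotypes did not overlap for any of the 33, as for 66.8% of all features. The complex medians lay close together, with values of 0.94 in photosystem I, 0.93 in photosystem II, 0.92 in ATP synthase and 0.89 in cytochrome b6f, and 0.95 for rbcL. psbC had 291463 and 312306 in del-cIDR, against 128068 and 127569 in FL (1.24). Centred on the nuclear median 33 were called higher, and centred on the other plastid features 23 were higher and 2 lower.

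Members of some transcription units changed by similar amounts, and members of others did not. The 33 genes include 9 units with 2 or more members. Against Col-0, the median range of log2 change within a unit was 0.21 in del-cIDR, 0.15 in FL, 0.29 in inactive del-cIDR and 0.14 in inactive FL, where the range over all 33 genes was 0.75 in del-cIDR, 0.57 in FL, 0.99 in inactive del-cIDR and 0.43 in inactive FL. A range grows with the number of genes, so a range within units of 2 to 5 genes is smaller than one over 33 in any case. Whether members of a unit moved together more than other genes was not tested. Genes of a unit can share reads of the same precursor, so they are not independent. psaA and psaB, which are cotranscribed, differed by 0.049 in del-cIDR and by 0.0068 in FL. In the psbB unit the change in del-cIDR was larger at each gene along the unit, with psbB at 0.48, psbT at 0.52, psbH at 0.58, petB at 0.62 and petD at 0.93, and in FL the ends differed likewise, psbB at -0.55 and petD at -0.31. In the atpI-atpH-atpF-atpA unit the order in del-cIDR was the opposite, with the largest change at the first gene. There atpI stood at 0.75 and the other 3 genes between 0.32 and 0.42. The widest unit was psbD-psbC-psbZ in inactive del-cIDR, with psbD at 0.071, psbC at 0.25 and psbZ at 0.75. psbD and psbC overlap by 53 bp and atpB and atpE by 4 bp, and reads in the overlaps cannot be assigned to 1 gene.

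**Figure D4:**
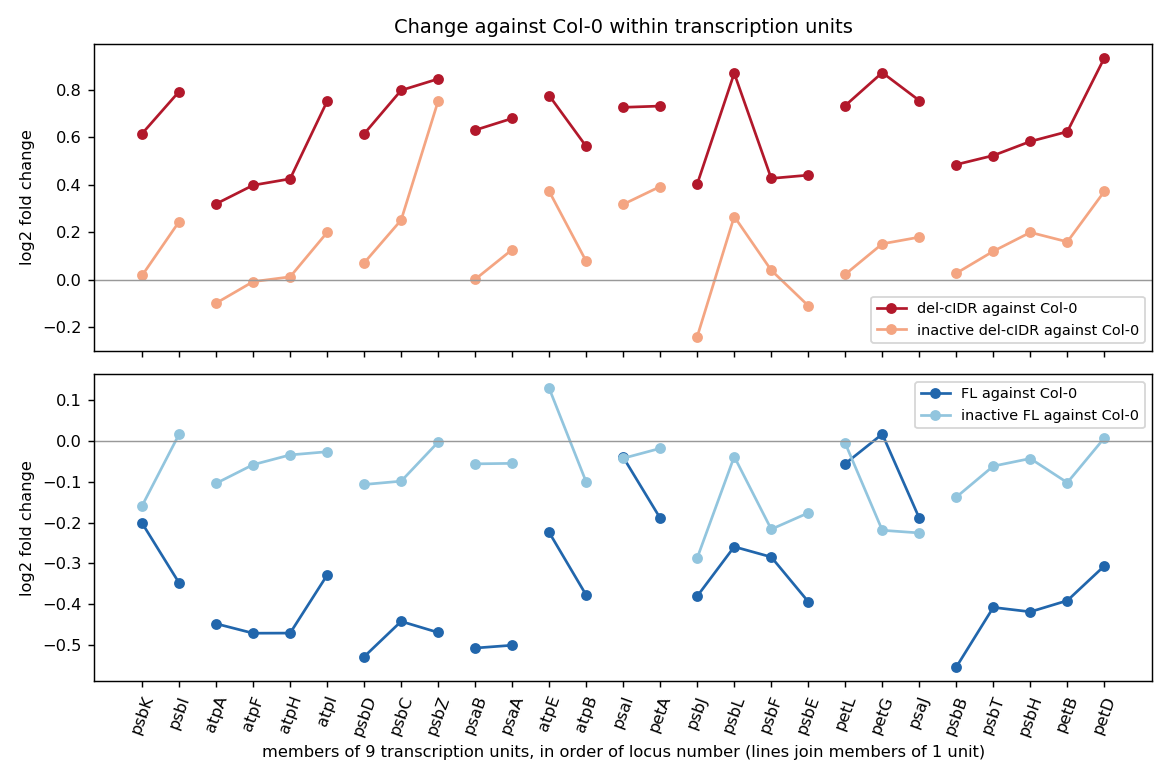
Log2 fold change against Col-0 (y axis) for members of 9 transcription units in order of locus number (x axis), joined by lines within a unit; the upper panel has del-cIDR and inactive del-cIDR, the lower panel has FL and inactive FL. psbZ and psbL stand above the other members of their units in inactive del-cIDR, and petD is the highest point of del-cIDR at 0.93.

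psbN lies on the opposite strand within the psbB unit and encodes a factor for photosystem II assembly. It had 25635 and 26489 in del-cIDR, 16443 and 16090 in FL, 23280 and 22990 in inactive del-cIDR and 22376 and 22824 in inactive FL, against 23179 and 22597 in Col-0. Its rise in del-cIDR, 0.19, was the lowest of the 33, and its fall in FL, -0.49, was among the deepest. Whether the counting used strand is not stated, so reads of psbN cannot be told apart from reads of the psbT to psbH stretch on the other strand. Its rise in del-cIDR was not called without the trend in the prior variance.

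The other 99 plastid-encoded features include ribosomal, transfer RNA, polymerase and NADH dehydrogenase genes. In del-cIDR 85 rose and 7 fell against Col-0 (median 0.67), in FL 10 rose and 48 fell (median -0.15), in inactive del-cIDR 69 rose and 7 fell (median 0.37) and in inactive FL 9 rose and 21 fell (median -0.043). Over all 30613 features, 65.5% rose and 1.85% fell in del-cIDR, and 75.5% rose and 1.47% fell in FL. In inactive del-cIDR 32.4% of them rose and 7.84% fell, and in inactive FL 16.9% rose and 3.12% fell. The median of the photosynthesis genes was lower than that of the rest of the plastid chromosome in all 4 genotypes, 0.62 in del-cIDR, -0.38 in FL, 0.077 in inactive del-cIDR and -0.062 in inactive FL; these differences were not tested. Of the plastid signal they took 34.2% and 35.5% in del-cIDR, 28.5% and 28.1% in FL, 21.6% and 23.1% in inactive del-cIDR and 26.1% and 28.4% in inactive FL, against 25.7% in both Col-0 libraries. The 2 strongest of the other plastid features hold 81.4% to 87.9% of the rest, so this share moves with them. The interaction of activity and form was called higher in 49 and lower in 6 of the other 99 features, with a median of 0.26. Over all features it was called higher in 6.15% and lower in 13.9%, with a median of -0.19.

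Nuclear-encoded subunits of the same 4 complexes gave other counts. Of 22 such genes, 21 rose in del-cIDR against Col-0 (median 0.84), 9 rose and 6 fell in FL (0.079), 22 rose in inactive del-cIDR (1.26) and 11 rose and 3 fell in inactive FL (0.15). Of all features 65.5% rose in del-cIDR (median 0.56), 75.5% rose and 1.47% fell in FL (0.67), 32.4% rose in inactive del-cIDR (0.31) and 16.9% rose and 3.12% fell in inactive FL (0.22). PSAO (AT1G08380), a photosystem I subunit, rose by 1.35 in del-cIDR and by 1.89 in inactive del-cIDR. With the active del-cIDR enzyme 18 of the 22 were lower than with its inactive partner and 0 higher (median -0.36), where 32 of the 33 plastid-encoded genes were higher. PSBO2 (AT3G50820), of the oxygen-evolving complex, fell by 0.66 in that comparison. In FL against inactive FL 7 of the 22 were lower and 0 higher (median -0.074), and the interaction was called lower for 13 and higher for 1 (median -0.34). Among all features 2.76% were lower and 28.7% higher in del-cIDR against inactive del-cIDR (median 0.27). In FL against inactive FL the shares were 0.751% lower and 58.1% higher (0.43), and in the interaction 13.9% lower and 6.15% higher (-0.19).

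Genes of plastid transcription in the nucleus were read from the same fit. Of 6 sigma factors, which direct the bacterial-type polymerase to promoters, 4 rose in del-cIDR, 3 in FL, 3 in inactive del-cIDR and 1 in inactive FL against Col-0, and 0 fell. With 65.5% of all features called higher in del-cIDR, 75.5% in FL, 32.4% in inactive del-cIDR and 16.9% in inactive FL, 4 of 6 is near the share in del-cIDR and 3 of 6 is below the share in FL. In inactive del-cIDR SIGE (AT5G24120, also SIG5), which in Arabidopsis acts at the psbD promoter, stood 1.37 above Col-0 and SIGA (AT1G64860) 0.96 above it. SIGE was lower by 1.09 in del-cIDR than in inactive del-cIDR, and higher by 0.49 in FL than in inactive FL. Of 12 proteins associated with the polymerase, 10 rose in del-cIDR, 6 in FL, 1 in inactive del-cIDR, where 3 fell, and 1 in inactive FL. PTAC12 (AT2G34640), one of them, rose by 0.50 in FL, less than the median of 0.67 of all features. Of 3 phage-type polymerases, 2 rose in del-cIDR, 3 in FL and 0 in both inactive genotypes, and 2 fell in inactive del-cIDR, SCA3 (AT2G24120) by 0.43. Of 11 genes of plastid RNA processing and stability, 10 rose in del-cIDR, 8 in FL, 6 in inactive del-cIDR, where 1 fell, and 3 in inactive FL. CRB (AT1G09340), an RNA-binding protein of the chloroplast, rose by 1.16 in del-cIDR and by 1.64 in inactive del-cIDR.

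The tissue lists were summed per library. The summed signal of 17 nuclear genes of photosynthetic shoot tissue was 327320 and 335340 in del-cIDR, 193140 and 190290 in FL, 360760 and 363170 in inactive del-cIDR and 194740 and 199250 in inactive FL, against 168800 and 166530 in Col-0. Of these 17, 15 rose and 1 fell in del-cIDR, 9 rose and 5 fell in FL, 17 rose in inactive del-cIDR and 10 rose and 1 fell in inactive FL. The sum of 12 root markers was 10765 and 11234 in del-cIDR, 10626 and 10474 in FL, 13810 and 13991 in inactive del-cIDR and 9131 and 9609 in inactive FL, against 9106 and 9024 in Col-0. Of the 12, 6 rose in del-cIDR, 8 in FL and 2 in inactive del-cIDR, where 2 fell, and 1 fell in inactive FL. The shares of all features called higher were 65.5% in del-cIDR, 75.5% in FL and 32.4% in inactive del-cIDR, so the root counts lie below them. BGLU23 (AT3G09260) alone held 80.9% to 90.9% of the root sum. Without it the other 11 root markers summed to 1764 and 1736 in del-cIDR, 2028 and 1953 in FL, 1361 and 1277 in inactive del-cIDR and 1319 and 1474 in inactive FL, against 1552 and 1533 in Col-0, so inactive del-cIDR was no longer the highest but below Col-0. Without the strongest shoot gene, LHCB1.3 (AT1G29930), the other 16 summed to 203730 and 208260 in del-cIDR, 114290 and 111560 in FL, 263110 and 265530 in inactive del-cIDR and 113850 and 118030 in inactive FL, against 93338 and 91322 in Col-0. No value in the table was 0. Inactive del-cIDR had the highest shoot sum and a sum of the 33 plastid genes near Col-0. The part of these tissue markers in the changes of the plastid genes was not tested. Of 14 mitochondria-encoded features, the other organelle genome, 9 rose against Col-0 in del-cIDR and 8 fell in FL. For inactive del-cIDR 4 of them rose and 6 fell, and for inactive FL 9 fell. The 9 of 14 in del-cIDR is near the 65.5% of all features called higher there. Among all features 1.47% were called lower in FL, 7.84% in inactive del-cIDR and 3.12% in inactive FL, so the mitochondrial falls lie above these shares.

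Among 2291 m6A peaks, 23 lay on the plastid chromosome, and 7 of these had at least 50% of their length in a photosynthesis gene. They fell on 5 genes: psbA (C:722-1626 of the TAIR10 build, 79.9% of the peak within the gene), psaB (C:39132-39621), psaA (C:40118-40659), rbcL (C:54796-55136 and C:55359-56260) and psbB (C:72338-72617 and C:73163-73383). Undivided by length, these are 5 of the 6 genes of highest signal, with psbC the other one; per kb they rank 1 (psbA), 2 (rbcL), 5 (psaB), 6 (psaA) and 7 (psbB) of the 33. The value is a deposited ratio per peak, with the m6A spike-in at 10.579 in every library, and its denominator is not stated.

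All 7 peaks had a lower ratio in each of the 4 ALKBH5 genotypes than in Col-0. The median of the 7 was 0.344 and 0.430 in del-cIDR, 0.676 and 0.940 in FL, 0.377 and 0.609 in inactive del-cIDR and 0.564 and 0.482 in inactive FL, against 3.15 and 2.85 in Col-0. No library of an ALKBH5 genotype reached the Col-0 range at any of the 7, a separation shared by 98.2% of all peaks in del-cIDR, 82.3% in FL, 81.2% in inactive del-cIDR and 91.5% in inactive FL. The median log2 change, with a pseudocount of 0.542, was -1.93 in del-cIDR, -1.39 in FL, -1.77 in inactive del-cIDR and -1.73 in inactive FL, and 7 of 7 were called lower in each. Over all peaks 79.8% were called lower in del-cIDR, 22.7% in FL, 24.1% in inactive del-cIDR and 21.8% in inactive FL, with medians of -1.52 in del-cIDR, -1.001 in FL, -0.95 in inactive del-cIDR and -0.97 in inactive FL. Of the other 16 plastid peaks, 14 were called lower in del-cIDR, 6 in FL, 15 in inactive del-cIDR and 11 in inactive FL. Their medians were -1.20 in del-cIDR, -0.82 in FL, -1.38 in inactive del-cIDR and -1.24 in inactive FL, so a lower ratio was not particular to the 7. The size of these changes depends on the pseudocount, since many ratios lie near it.

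The peak on psbA had 0.661 and 0.796 in del-cIDR, 1.32 and 1.40 in FL, 0.775 and 0.903 in inactive del-cIDR and 1.00 and 0.808 in inactive FL, against 3.19 and 2.99 in Col-0. The peak on psaB was the lowest of the 7 in Col-0 replicate 1, with 0.264 and 0.347 in del-cIDR, 0.561 and 0.828 in FL, 0.298 and 0.495 in inactive del-cIDR and 0.421 and 0.420 in inactive FL, against 2.85 and 2.66 in Col-0. The psbA peak and the second rbcL peak lay above the other 5 in every ALKBH5 library. All 7 stand low among peaks: only 3.49% to 7.99% of all peaks, depending on the library, lay below their median.

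No difference between active and inactive enzymes was called at these peaks. By limma, 0 of 7 were called in del-cIDR against inactive del-cIDR (0.175% of all peaks were called), in FL against inactive FL (0.218%) or in the interaction (0.175%), and 0 of 7 had an unadjusted p under 0.05 in any of these; the medians were -0.14 in the del-cIDR form and 0.35 in the full-length form. In del-cIDR against FL 0 of 7 were called (0.873% of all peaks) and 4 had an unadjusted p under 0.05, with a median of -0.53. SEs of single peaks ran over 0.25 to 0.36 between 2 genotypes and up to 0.51 in the interaction, so differences of this size were not detectable in this fit with 2 libraries a group. The prior degrees of freedom were infinite for peaks. These SEs therefore come from the variance trend over all peaks, not from the spread of the single peak. Centred on the median nuclear peak, 0 of 7 were called in any of the 4 comparisons with Col-0. The RNA of the same 5 genes was higher in del-cIDR, lower in FL and between -0.31 and 0.16 of Col-0 on the log2 scale in the inactive genotypes, while the m6A ratio of their peaks was below Col-0 in all 4.

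**Figure D5:**
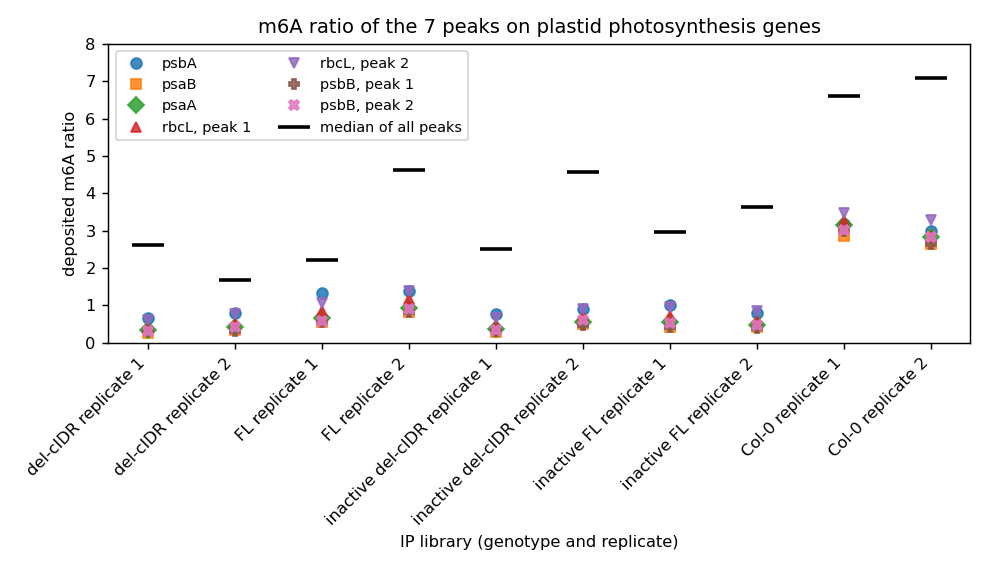
Deposited m6A ratio (y axis) of the 7 peaks on plastid photosynthesis genes in each IP library (x axis); symbols are peaks and black bars are the median of all 2291 peaks. The 7 peaks lie near 3 in both Col-0 libraries and below 1.5 in all 8 libraries of the ALKBH5 genotypes, and below the median of all peaks in every library.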

How the data were processed

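Input and IP libraries of 5 genotypes, 2 of each per genotype, were used, 20 in all; no column of another sample was present. Per the submitters' processing notes the tools were HISAT2, MACS2, featureCounts, fastp, Picard, bedtools and SAMtools and the build TAIR10, without versions. The authors deposited a normalized signal per feature from input libraries and a ratio per m6A peak from IP libraries; the scaling, the denominator, the use of strand and the pooling for peak calling are not stated. Low values occur in short and long genes: in Col-0 replicate 1, 280 features lie under 1.1, and those with a known length span 239 to 5299 bp. Whether low values depend on length was not tested. Levels of different genes are compared per kb of gene length; sums, shares and ranks of signal named as undivided are not.

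Spike-ins were set aside, which left 30613 features and 2291 peaks. log2(value + pseudocount) was fitted with limma 3.58.1 in R 4.3.3 (1 term per genotype, trend in the prior variance), with pseudocounts at the 5th percentile of values above 0 (6.94 for signal, 0.542 for the ratio). A feature had to reach the pseudocount in 2 libraries; this removed 0. Whole reads were not recovered, so no count test was run. Tables and figures used Python 3.11.15 with pandas 2.3.3, numpy 2.4.6 and matplotlib 3.10.9. In simulated data for del-cIDR against Col-0 over 30613 features, 13 of 100 changes of 0.5 log2 units and 51 of 100 changes of 1 were recovered, with 1 false call; for 2291 peaks 0 of 100 were recovered at either size.

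Locus identifiers were paired with symbols by standard Arabidopsis nomenclature, since the gene table (assembly TAIR10.1) lists plastid genes under other identifiers; for 33 of 33 the gene start rises with the locus number. Gene lengths come from that table, and no sequence is printed because none was provided. A peak was assigned to a gene that held at least 50% of it. The genes, lists and tests were chosen with earlier results of these data known. All 33 genes are named with a value; those with values in every library were the strongest gene of each complex, those of largest and smallest mean change, rbcL and psbN, and psbB and psbC, in part of the libraries, were chosen after their values were seen. Of each list, genes among the 4 of smallest p were named. Alternatives were another pseudocount, other filters, no variance trend, a replicate block, centring on nuclear or other plastid features, leaving out each library, and, chosen after seeing the data, fits of only the 2 groups compared, a block with the del-cIDR numbers crossed, and marker sums without their strongest gene.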

Additional observations from a re-analysis of the deposited data

Results flagged for a closer look

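The difference between active and inactive genotype (active minus inactive, log2) was not the same in the del-cIDR form and the full-length form for 33 of the 33 plastid photosynthesis genes, by the interaction term in limma with Benjamini-Hochberg adjustment over 30613 features. Of all features 6.15% were called higher in it. For the 13 genes chosen by rule and for psbB and psbC, the difference, del-cIDR form minus full-length form, was 1.00 for psaA, 0.84 for psaC and 0.41 for psaI in photosystem I. In photosystem II it was 0.89 for psbC, 0.87 for psbB, 0.74 for psbJ, 0.65 for psbA, 0.65 for psbN and 0.56 for psbZ. In the cytochrome b6f complex it was 0.87 for petD, 0.75 for petB and 0.36 for petN. It was 0.76 for atpA and 0.76 for atpE in the ATP synthase, and 0.72 for rbcL. psbZ reached its difference with a fall in the full-length form and a value of 0.093 in the del-cIDR form, while psbA reached its difference with rises in both forms, 0.79 and 0.14.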

How the results depend on the processing

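Counts of called genes in del-cIDR against Col-0, FL against Col-0, both active against inactive comparisons, del-cIDR against FL and the interaction stayed within 1.5 times of the values given under every pseudocount, filter, variance and left-out library tried; scaling changed some. Centred on the nuclear median, 9 were called in del-cIDR against Col-0, 23 in inactive del-cIDR, 30 in inactive FL, 16 in del-cIDR against inactive del-cIDR and 26 in active against inactive over both forms. Centred on the other plastid features, 22 were called in inactive del-cIDR, 16 in inactive FL, 21 in del-cIDR against inactive del-cIDR and 23 over both forms. Without a variance trend, 5 were called in inactive del-cIDR, 0 in inactive FL and 14 over both forms, and 4 peaks in FL. Fitted alone with Col-0, inactive FL had 6. Leaving out 1 library gave 5 to 15 in inactive FL, 13 to 21 in inactive del-cIDR, 25 to 29 in FL, 24 to 26 in FL against inactive FL, 20 to 26 over both forms and 32 to 33 in the interaction, and 4 to 7 peaks in FL and 6 to 7 in inactive FL. Peaks centred on the nuclear median gave 0 in each of the 4 genotypes against Col-0; limiting the peak table to peaks at or above the median ratio left none of the 7. The cause was not tested.

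Among the 15 genes for which alternatives were computed (those chosen by rule, psbB and psbC), called changes turned direction only under centring. On the nuclear median the log2 changes against Col-0 became, in del-cIDR, -0.063 for psaC, -0.21 for psbJ, -0.18 for petN, -0.30 for atpA, -0.14 for rbcL, -0.43 for psbN and -0.131 for psbB; in inactive del-cIDR, -0.26 for psaA, -0.065 for psaI, -0.1313 for psbC, -0.22 for petB, -0.011 for petD, -0.010 for atpE and -0.22 for rbcL; and in inactive FL -0.16 for atpE. psbA became -0.41 in FL against inactive FL, and psbN -0.062 in del-cIDR against inactive del-cIDR. On the other plastid features they became, in del-cIDR, -0.036 for psaC, -0.19 for psbJ, -0.16 for petN, -0.27 for atpA, -0.11 for rbcL, -0.40 for psbN and -0.10 for psbB; in inactive del-cIDR, -0.10 for psaA, -0.066 for petB and -0.061 for rbcL; in inactive FL, 0.013 for psaC, 0.015 for psbB and 0.049 for atpA. There petN became -0.16 and psbN -0.067 in del-cIDR against FL, and rbcL -0.052 and psbN -0.19 in del-cIDR against inactive del-cIDR.

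The mean summed signal of the 33 genes, rescaled to an equal nuclear total, was 1848950 in FL, 3126273 in inactive del-cIDR and 2757175 in Col-0; rescaled to the unmodified spike-in it was 2585840 in Col-0. The labels do not say that replicate numbers pair the samples. Deviations of same-numbered input libraries correlated between -0.043 and 0.11. Those of IP libraries correlated between 0.12 and 0.35 among FL, inactive del-cIDR, inactive FL and Col-0, and between -0.23 and -0.12 with del-cIDR. With the replicate number as a block, 33 genes were called in del-cIDR against Col-0, 29 in FL, 18 in inactive del-cIDR, 15 in inactive FL and 33 in the interaction, and 7 peaks in each genotype against Col-0. With the numbers of del-cIDR crossed in the block, the peak counts were also 7 in each genotype against Col-0 and 0 in the other comparisons. Depth is unknown. In the simulation, single changes of up to 1 log2 unit in randomly drawn features of any level were often missed at 2 libraries a group. That recovery gives no detection limit for the 33 genes or the 7 peaks. The simulation shifted only a sample of peaks, while in FL against Col-0 the median change of all peaks was -1.001. In that comparison the psbA peak was called at -0.93. The SEs of the 33 genes in del-cIDR against Col-0 ran from 0.036 (psbN) to 0.11 (psbM), and the smallest change called there was 0.19 (psbN).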
